A study of Mus musculus with 6 samples.

Results

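Tubulins and microtubule-associated proteins were described here in newborn mouse cortex, as the 39 rows of a table of 23621 genes whose gene symbol belongs to a named family. The rule took the alpha-, beta- and gamma-tubulin genes (6, 10 and 2 rows), 9 classical microtubule-associated proteins (MAPs), 3 genes of the doublecortin family, 4 stathmins, 2 TPPP genes and 3 end-binding proteins. It used symbols only, not measured values. Total RNA of the cortex was sequenced from 3 Tle4-/- null mutant mice and 3 wild-type littermates at postnatal day 0, all on a mixed background of the C57BL/6J, 129S6 and CD1 strains. Tle4 encodes a Groucho-type co-repressor. The labels do not say which littermates share a litter, whether each library is 1 animal, or the sex of any animal.

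Microtubules are hollow polymers of alpha- and beta-tubulin dimers, and gamma-tubulin in ring complexes starts new ones. Newborn cortical neurons build them at high rates to migrate and to extend axons and dendrites, and they draw on several alpha and beta genes whose proteins differ mostly in their acidic tails. MAPs bind along the polymer, doublecortin-family proteins brace it, end-binding proteins ride its growing plus end, TPPP proteins bundle it, and stathmins hold free dimers and promote disassembly.

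The libraries held 18617408 to 21632607 counts. Tle4 stood at 69.3, 86.8 and 86.8 TMM-normalized CPM (counts scaled to library size) in Tle4-/- cortex and at 198, 142 and 166 CPM in wild-type cortex (log2 fold change -1.06, SE 0.14, edgeR adjusted p = 0.0377). Fezf2, a transcription factor of deep-layer neurons, was higher in the mutant by a log2 fold change of 1.31 (SE 0.14, edgeR adjusted p = 0.0117). Xist ranged from 3407 to 4124 CPM in the mutant libraries and from 0.494 to 1.99 CPM in the wild-type ones, so sex and genotype cannot be told apart. The 9 neuron markers, all detected, summed to 3595 to 3782 CPM in mutant and 3430 to 3905 CPM in wild-type cortex. Summed meningeal markers were uneven in both genotypes, at 259.9 to 521 CPM in mutant and 33.8 to 665 CPM in wild-type cortex. Choroid plexus markers summed to 103 CPM in the third mutant library, and to 4.16 and 5.29 CPM in the other mutant and 2.04 to 8.12 CPM in the wild-type libraries. The 8 striatal neuron markers summed to 183 to 193 CPM in mutant and 182 to 278 CPM in wild-type cortex, with a median log2 fold change of -1.05, 1 of 8 above 0, and 5 at an unadjusted edgeR p under 0.05 but 0 called. The part of these tissues in the members' values was not tested. In bulk tissue, fewer cells of a type and less RNA per cell cannot be told apart.

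No member differed between the genotypes at an adjusted p under 0.05. Of the 39 members, 35 had enough counts for edgeR's quasi-likelihood test, and 0 were called. Of all 16274 genes tested, 18 were called (0.111%), 0.0492% higher and 0.0614% lower in the mutant. There were 3 members with an unadjusted p under 0.05, each higher in Tle4-/- cortex: the end-binding gene Mapre2 and the stathmins Stmn4 and Stmn2. That is 8.57% of the tested members, against 3.45% of all genes tested in either direction with 1.71% higher and 1.73% lower. The same 3 were the members whose mutant libraries all lay above the wild-type ones, again 8.57%, against a background of 4.18%, and 0 members lay wholly below, against 3.75%. With the DESeq2 Wald test and with limma-voom, 0 members were called as well, and the same 3 had an unadjusted p under 0.05. In the authors' own deposited comparison, Mapre2 and Stmn4 lay under 0.05 before adjustment but Stmn2 did not (p = 0.115).

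The estimates were narrow. The 95% interval of the fold change lay within 2-fold either way for all 35 tested members and within 1.5-fold either way for 27 of them. The median standard deviation of log2 CPM within a genotype was 0.12 over the tested members and 0.22 over all genes without a 0. These sets were not matched for level, and 25 of the tested members had a mean of at least 100 CPM. A log2 fold change above 0 was found for 26 of the 35 (74.3%, against 48.7% of all genes tested), with a median of 0.08 against -0.01 over all genes. These shares moved with single libraries. The third wild-type library held the lowest value of 17 of the 35 members (48.6%, against 22.9% of all genes) and the highest of 0 (against 21.2%). The highest value lay in the first mutant library for 14 members (40.0%, against 19.2%) and in the first wild-type library for 12 (34.3%, against 20.5%). Without the third wild-type library 23 members lay above 0 and the members' median was 0.05, and without the first wild-type library the values were 31 and 0.13.

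**Figure D1:**
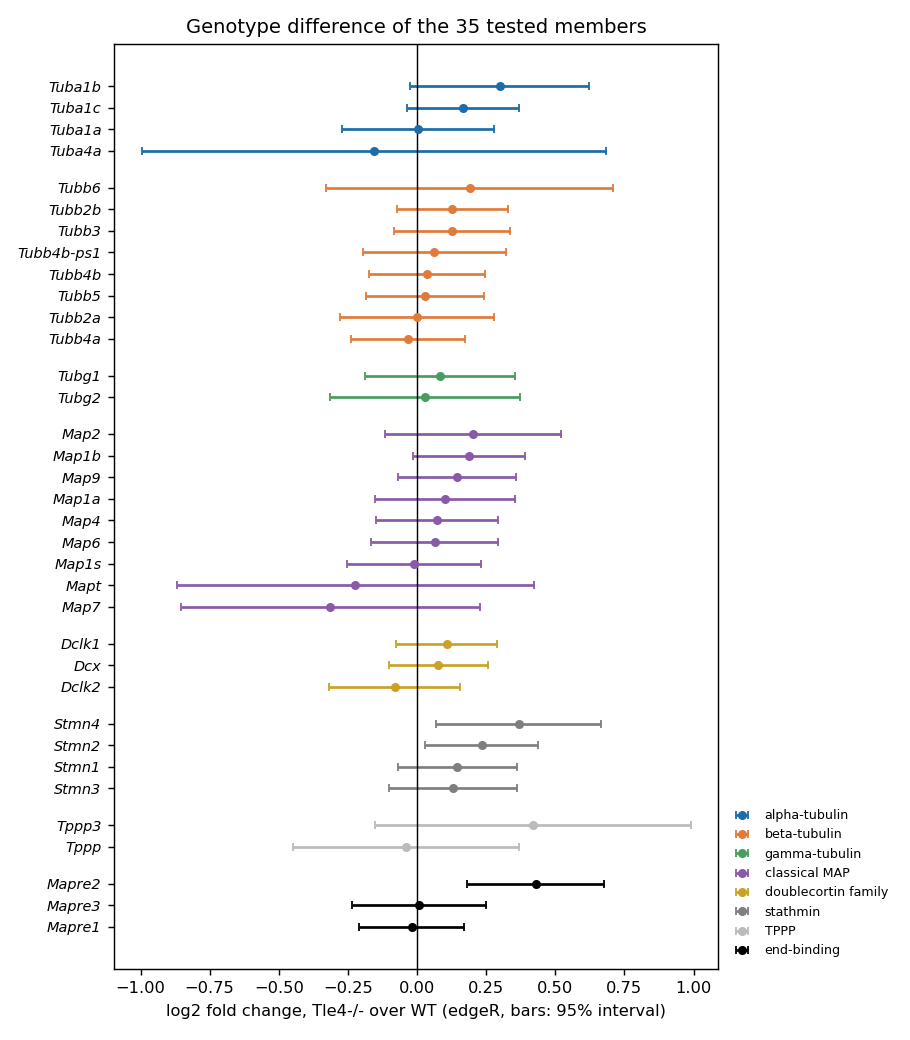
Log2 fold change of Tle4-/- over wild-type cortex for the 35 tested members, grouped by role; points are edgeR estimates and bars are 95% intervals. The intervals of Mapre2, Stmn4 and Stmn2 lie above 0 and the other 32 include 0.

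Members took up 3.58%, 3.66% and 3.65% of all counts in the mutant libraries and 3.75%, 3.33% and 3.32% in the wild-type libraries, and the genotypes overlapped. The 18 tubulin rows alone held 2.05%, 2.23% and 2.27% of counts in mutant cortex, against 2.34%, 1.98% and 2.03% in wild-type cortex (exact 2-sided permutation p = 0.7; 3 libraries against 3 cannot give a p below 0.1).

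Alpha-tubulin RNA came almost wholly from 3 neighbouring genes on chromosome 15 of GRCm38: Tuba1b (98931425-98934565), Tuba1a (98949841-98953551) and Tuba1c (99029891-99038105). Tuba1a, the main alpha-tubulin of young neurons, ranked first or second of all genes by CPM in every library. It stood at 7986, 8578 and 9658 CPM in Tle4-/- cortex and at 10129.8, 7354 and 8667 CPM in wild-type cortex. The highest and the lowest library were both wild type, and the genotype means of 8741 ± 848 and 8717 ± 1389 CPM (SD, n = 3 each) lay closer than either spread. Its log2 fold change was 0.00 (95% interval -0.27 to 0.28).

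Tuba1c, a more widely used alpha-tubulin, gave 2143, 2285 and 2132 CPM in mutant cortex and 2134, 1944 and 1765 CPM in wild-type cortex. The genotypes met at their edge, where the highest wild-type library passed the lowest mutant one. The log2 fold change was 0.17 (SE 0.09, edgeR unadjusted p = 0.0962). Tuba1b, also expressed in many tissues, gave 502, 471 and 390.5 CPM in mutant cortex and 376, 431 and 302 CPM in wild-type cortex, with a log2 fold change of 0.30 (SE 0.14, edgeR unadjusted p = 0.0668). Its lowest mutant library lay below the highest wild-type library. The log2 fold change of Tuba1b was 0.17 without the third wild-type library and 0.43 without the second (edgeR unadjusted p = 0.227 and 0.0155), and it had an edgeR unadjusted p of 0.0211 with the replicate block and 0.0471 without a filter. That of Tuba1c lay between 0.10 and 0.24 with each library left out.

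Tuba4a, an alpha-tubulin of mature tissue whose gene ends without an encoded tyrosine, was low and uneven, with 11.9, 19.8 and 19.5 CPM in mutant and 20.5, 26.4 and 10.1 CPM in wild-type cortex. Its within-genotype spread, an SD of 0.59 in log2 CPM, was the widest of the tested members, and its interval ran from -0.996 to 0.68. The row overlaps that of Stk16 in the genome, and the sources used here do not say whether counting used the strand. Tuba8, an alpha-tubulin known from muscle and testis, had 1, 0 and 4 counts in mutant libraries and 7, 3 and 2 in wild-type ones, and Tuba3b, best known from testis, had 0, 1 and 0 against 1, 0 and 0. Neither was tested.

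The 3 abundant alpha genes are nearly identical in coding sequence. The coding sequence of Tuba1a shared 98.3% of aligned bases with Tuba1b and 97.6% with Tuba1c, and Tuba1b shared 98.4% with Tuba1c. Stretches of this identity bear on the counts. Of all 50-base windows in the annotated transcripts of Tuba1a, 61.6% also occurred in a transcript of another gene outside its locus, and the same held for 66.0% of windows in Tuba1b and 52.7% in Tuba1c. With 100-base windows the shares were 49.2%, 58.6% and 46.0%. No source used here gives the read length or the treatment of reads that match several genes. The split of counts among these 3 genes is therefore uncertain. Their sum does not depend on that split, but windows were also shared with genes outside the 3, such as Gm17383 and Gm14150. The ratio of Tuba1a to Tuba1c counts was 3.73, 3.75 and 4.53 in mutant libraries and 4.75, 3.78 and 4.91 in wild-type libraries, and the genotypes overlapped.

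**Figure D2:**
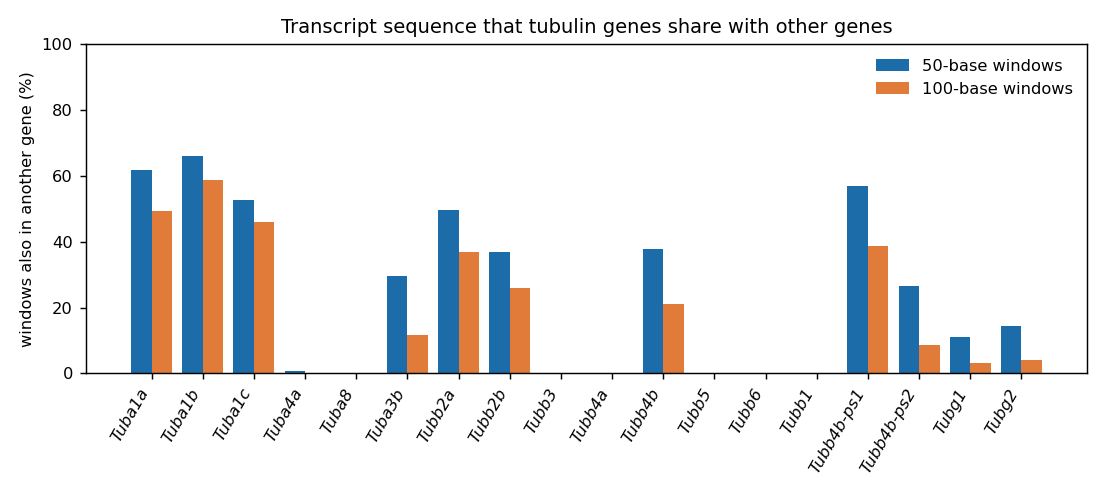
Share of the 50-base and 100-base windows of each tubulin gene's annotated transcripts that also occur in a transcript of another gene, in percent. Tuba1a, Tuba1b and Tuba1c lie between 46.0% and 66.0%, while Tubb3, Tubb4a and Tubb5 lie at or near 0.

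In the summed alpha-tubulin FPKM (fragments per kilobase, scaled to depth, as deposited), Tuba1a made up 65.8%, 66.4% and 70.8% in mutant libraries and 71.9%, 66.3% and 72.7% in wild-type libraries. Its mean share was 67.7% ± 2.73 in Tle4-/- and 70.3% ± 3.46 in wild-type cortex (SD, n = 3 each; exact 2-sided permutation p = 0.3). Tuba1c made up 27.3% ± 1.89 in mutant and 25.4% ± 2.39 in wild-type cortex (SD, n = 3 each; exact permutation p = 0.2). Tuba1b held 4.96% ± 0.897 in mutant and 4.24% ± 1.05 in wild-type cortex (SD, n = 3 each; exact permutation p = 0.4). The alpha mix at birth was thus led by Tuba1a in every library, and no share separated the genotypes.

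**Figure D3:**
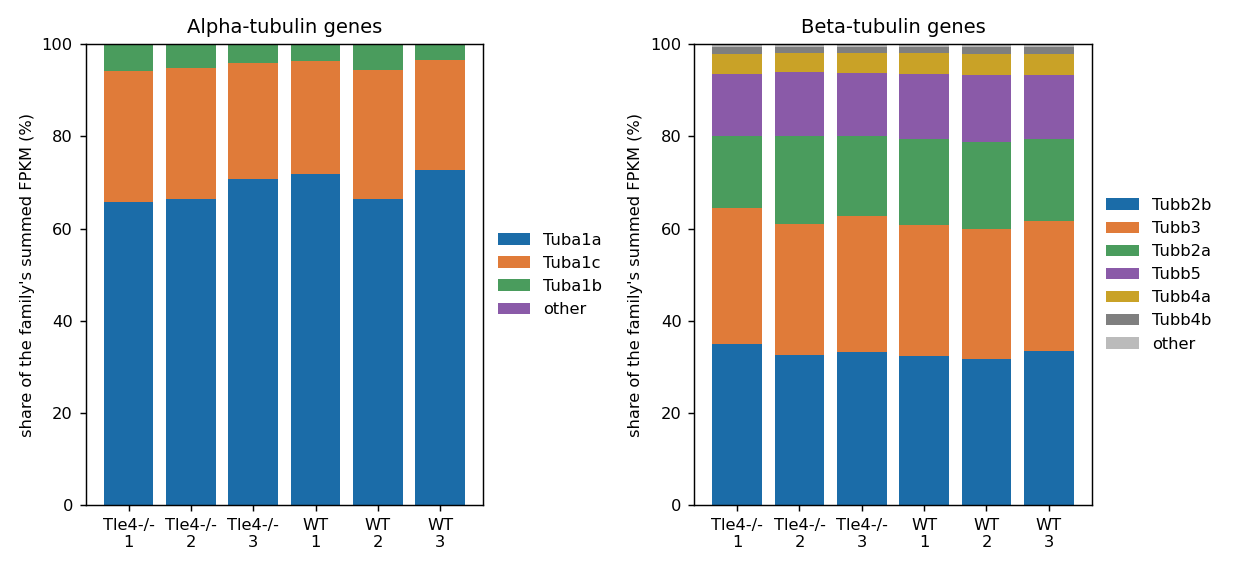
Share of each gene in its family's summed FPKM, in percent, for the 3 Tle4-/- libraries and the 3 wild-type (WT) libraries; genes under 1% are joined as other. Tuba1a is the largest alpha share in all 6 libraries, from 65.8% to 72.7%, and Tubb2b the largest beta share, followed by Tubb3.

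Beta-tubulin RNA was spread over more genes. Tubb2b, which serves migrating neurons, lies at chr13:34127008-34130354 and gave 2926, 3008 and 2982 CPM in Tle4-/- cortex and 3024, 2478 and 2658 CPM in wild-type cortex. Tubb3, the neuronal beta-tubulin, at chr8:123411424-123422015, gave 2407, 2561 and 2574 CPM in mutant and 2585, 2138 and 2179 CPM in wild-type cortex. For both genes the first wild-type library lay above all mutant libraries and the other wild-type libraries below them, and both log2 fold changes were 0.13 (SE 0.09 each).

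Tubb5, the most widely used beta-tubulin, gave 2889, 3323 and 3194 CPM in mutant and 3405, 2961 and 2861 CPM in wild-type cortex (log2 fold change 0.03, SE 0.09). Tubb2a, the close neighbour of Tubb2b on chromosome 13, gave 1079, 1448 and 1295 CPM in mutant and 1439, 1219 and 1166 CPM in wild-type cortex. Its genotype means were both 1274 CPM, and its 95% interval ran from -0.28 to 0.28 on the log2 scale. The next in level was Tubb4a, a brain beta-tubulin also known from oligodendrocytes, with 434, 433 and 439 CPM in mutant and 493, 409.5 and 432 CPM in wild-type cortex. Its mutant libraries lay within the range of the wild-type ones. Tubb4b, a beta-tubulin of many tissues and of cilia, gave 156, 168 and 164 CPM in mutant and 172, 151 and 153 CPM in wild-type cortex (log2 fold change 0.04, SE 0.09).

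The remaining beta rows were scarce. Tubb6, a minor beta-tubulin, lay between 5.37 and 8.69 CPM over all libraries, with a log2 fold change of 0.19 (SE 0.23). Tubb1, the beta-tubulin of platelets, had 7, 4 and 2 counts in mutant and 3, 6 and 4 counts in wild-type libraries and was not tested; the 6 platelet markers summed to 15.3 to 16.2 CPM in mutant and 12.3 to 14.3 CPM in wild-type cortex. A further 2 rows are processed pseudogenes of Tubb4b. Tubb4b-ps2 had 1 to 3 counts per library and was not tested. Tubb4b-ps1 gave 31.1, 32.8 and 30.9 CPM in mutant and 32.4, 29.8 and 28.5 CPM in wild-type cortex. Tubb4b-ps1 and the coding sequence of Tubb4b share 98.6% of aligned bases, and 56.8% of its 50-base windows also occur in another gene. Its counts stood in a near-constant ratio to those of Tubb4b, at 0.199, 0.195 and 0.189 in mutant and 0.189, 0.197 and 0.186 in wild-type libraries. The split of counts between the pseudogene and Tubb4b is therefore uncertain.

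The beta coding ends are shown through the stop codon because they hold the acidic tail, in which beta-tubulins differ. They are read from GENCODE M21 transcripts, 5′ to 3′ along the gene. Capitals mark bases that differ from Tubb2b in the alignment, and bases missing from a shorter end are not marked. The GRCm38 positions are chr13:34127471-34127548 (minus) for Tubb2b, chr13:34074468-34074545 (minus) for Tubb2a, chr8:123421590-123421682 (plus) for Tubb3, chr17:35834982-35835056 (minus) for Tubb5, chr17:57080690-57080764 (minus) for Tubb4a and chr2:25222308-25222385 (minus) for Tubb4b.
Tubb2b: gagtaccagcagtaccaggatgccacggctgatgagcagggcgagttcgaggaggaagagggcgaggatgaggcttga
Tubb2a: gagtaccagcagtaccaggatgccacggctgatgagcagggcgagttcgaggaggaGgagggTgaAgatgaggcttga
Tubb3: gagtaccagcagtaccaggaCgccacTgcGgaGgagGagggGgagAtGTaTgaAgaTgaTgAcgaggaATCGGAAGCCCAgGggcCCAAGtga
Tubb5: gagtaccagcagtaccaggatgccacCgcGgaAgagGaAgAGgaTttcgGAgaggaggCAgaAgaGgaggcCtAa
Tubb4a: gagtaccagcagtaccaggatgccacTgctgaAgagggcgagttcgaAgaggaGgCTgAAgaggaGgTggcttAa
Tubb4b: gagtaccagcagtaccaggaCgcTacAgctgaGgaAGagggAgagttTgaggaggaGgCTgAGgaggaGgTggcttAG
Tubb2a carries 3 capitals in 78 bases, Tubb4a 11 in 75, Tubb5 16 in 75, Tubb4b 17 in 78 and Tubb3 32 in 93. Over the whole coding sequence Tubb2a and Tubb2b shared 96.5% of aligned bases, and Tubb2b shared 84.5% with Tubb3 and 84.1% with Tubb5.

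Beta transcripts otherwise shared less. None of the 50-base windows of Tubb3 occurred in another gene, 0.0892% of those of Tubb5 did, and 0.184% of those of Tubb4a. For Tubb2a and Tubb2b, 49.6% and 36.9% of windows occurred in any other gene, and 45.6% and 31.3% in each other. Tubb4b shared 37.8%, mostly with its pseudogenes.

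On the FPKM scale, the beta mix was 33.5% ± 1.24 Tubb2b in Tle4-/- and 32.5% ± 0.868 in wild-type cortex (SD, n = 3 each). Tubb3 made up 29.6%, 28.5% and 29.5% in mutant libraries and 28.4%, 28.1% and 28.2% in wild-type libraries. These shares did not overlap, with means of 29.2% ± 0.586 and 28.2% ± 0.162 (SD, n = 3 each; exact 2-sided permutation p = 0.1, the smallest possible, and 0.3 adjusted over the 9 alpha and beta shares of at least 1%). Tubb4a made up 4.47%, 4.04% and 4.21% in mutant libraries and 4.55%, 4.52% and 4.68% in wild-type libraries, all mutant values below all wild-type ones (exact permutation p = 0.1, adjusted p = 0.3). Tubb5, at 13.6% ± 0.288 in mutant and 14.1% ± 0.384 in wild-type cortex (SD, n = 3 each), had the same exact permutation p of 0.1, with the highest mutant and the lowest wild-type library both at 13.85%. The Tubb4a libraries overlapped between the genotypes per kilobase of merged exons and on counts (exact permutation p = 0.2 on both scales), and those of Tubb5 on counts (exact permutation p = 0.2). Tubb3 kept its separation on all 3 scales (exact permutation p = 0.1). The scales rest on the same counts, so they are not separate tests.

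The other beta shares overlapped. Tubb2a held 17.4% ± 1.69 in mutant and 18.4% ± 0.597 in wild-type cortex (SD, n = 3 each; exact permutation p = 0.5), and Tubb4b 1.45% ± 0.0199 in mutant and 1.501% ± 0.0425 in wild-type cortex (SD, n = 3 each; exact permutation p = 0.2). Tubb2a and Tubb2b summed gave 50.9% in both genotypes, with SDs of 0.547 in mutant and 0.295 in wild-type cortex. The ratio of summed alpha to summed beta FPKM was 0.881 ± 0.0363 in mutant and 0.893 ± 0.0296 in wild-type cortex (SD, n = 3 each; exact permutation p = 0.7).

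The order of the isotypes depends on the gene length used. The length implied by counts and FPKM equalled the summed lengths of all distinct annotated exons, overlapping ones counted each time, within 1 base for 28 of the 39 members, and in 20 of these that exceeded the merged exons. For Tubb5 it was 4990 bases against 3327 merged bases, for Dclk1 36663 against 15296, and for Tuba1a, which matched neither sum, 3173 against 1803. For some members it was shorter than the merged exons, at 1922 against 2294 bases for Tubb2b and 1977 against 2287 for Tuba1c. That of Tubb3 was 1868 bases, equal to its merged exons. Per kilobase of merged exons, Tuba1a made up 80.0% ± 2.06 of alpha-tubulin in mutant and 81.9% ± 2.60 in wild-type cortex, and Tubb3 made up 28.8% ± 0.648 of beta-tubulin in mutant and 27.8% ± 0.201 in wild-type cortex (SD, n = 3 each). On that scale Tubb3 lay above Tubb2b, at 27.8% ± 1.12 in mutant and 26.7% ± 0.794 in wild-type cortex, and Tubb5 moved to 20.1% ± 0.364 in mutant and 20.9% ± 0.501 in wild-type cortex (SD, n = 3 each). Since the deposited length of Tubb2b is shorter than its merged exons, its place below Tubb3 depends on the annotation. Length is the same in every library, so the fold changes between genotypes do not depend on it.

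**Figure D4:**
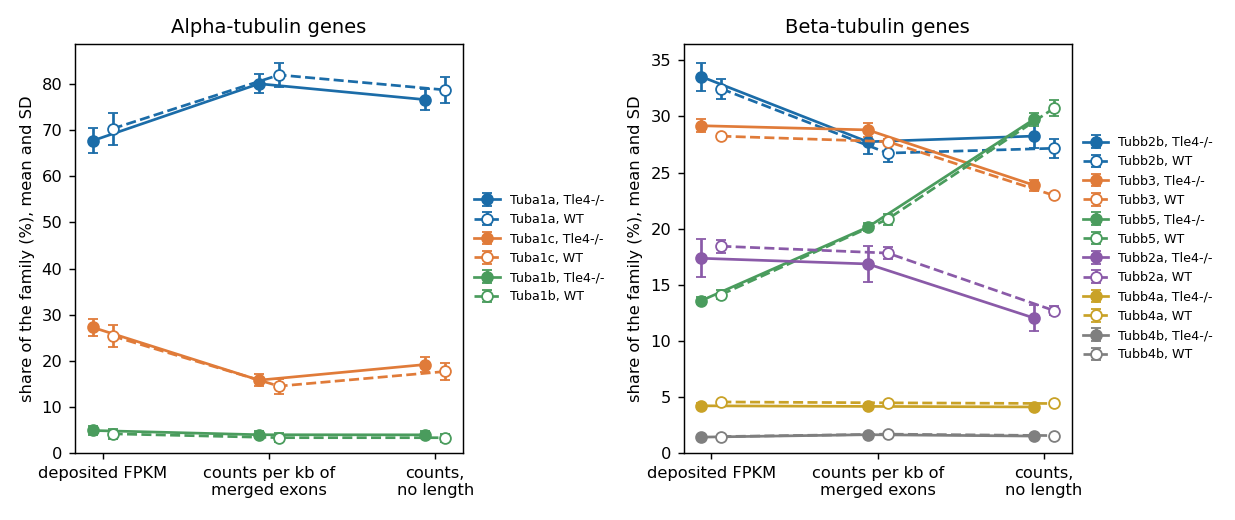
Share of each gene in its family, in percent, on 3 scales: deposited FPKM, counts per kilobase of merged exons, and counts with no length; filled points are Tle4-/- and open points wild-type (WT) means, with SD over 3 libraries. Tubb5 goes from 13.6% to 29.8% of the mutant beta total across the scales, while the genotypes stay close on each.

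Gamma-tubulin, the nucleating form, was low, and both genes overlapped between the genotypes. Tubg1 gave 37.4, 31.0 and 33.7 CPM in Tle4-/- and 33.8, 31.4 and 31.2 CPM in wild-type cortex, and Tubg2 gave 23.8, 29.1 and 26.1 CPM in mutant and 29.1, 26.7 and 21.6 CPM in wild-type cortex. Both genes lie on chromosome 11 and share 93.3% of coding bases; Tubg1 held 47.6% ± 4.89 of their summed FPKM in mutant and 46.8% ± 3.11 in wild-type cortex (SD, n = 3 each; exact permutation p = 0.9). Neither differed beyond its spread, with log2 fold changes of 0.08 (SE 0.12) and 0.03 (SE 0.15).

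Among the classical MAPs, 6 of 9 lay above 0, 3 below, and 0 were called. Map1b, a MAP of growing axons, had the highest FPKM of the group, 302 ± 25.6 in mutant and 267 ± 15.7 in wild-type cortex (SD, n = 3 each). Its CPM values were 3905, 3286 and 3605 in mutant and 3338, 3184 and 2955 in wild-type cortex, where the lowest mutant library fell below the highest wild-type one. The log2 fold change was 0.19 (SE 0.09, edgeR unadjusted p = 0.0661). Map2, the MAP of dendrites, gave 1178, 911 and 1080.3 CPM in mutant and 864, 1099.7 and 791 CPM in wild-type cortex (log2 fold change 0.20, SE 0.14).

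Mapt, which encodes the axonal protein tau, had the widest within-genotype spread of the 25 tested members above 100 CPM. It gave 1779, 2069.9 and 1098 CPM in Tle4-/- and 2186, 1457 and 2132 CPM in wild-type cortex, so that the third mutant and the second wild-type libraries were low. Its log2 fold change was -0.22 (SE 0.27). It was -0.00 without the third mutant library, -0.38 without the second wild-type library and -0.42 without the second mutant library. Per kilobase of merged exons Mapt and Map1b had similar levels, at 218 ± 66.6 and 226 ± 19.2 in mutant cortex and 256 ± 48.8 and 199.9 ± 11.7 in wild-type cortex (counts per kilobase, scaled to depth; SD, n = 3 each). The length implied by the deposited FPKM was 11852 bases for Map1b, against 15846 merged bases. For Mapt it was 10767 against 7531, so the similarity depends on the annotation.

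The other 6 MAPs had log2 fold changes between -0.31 and 0.14. Map9, which binds spindle and interphase microtubules, stood at 0.14 (SE 0.09). Map1a, which becomes abundant as neurons mature, stood at 0.10 (SE 0.11), with a row that overlaps Ppip5k1. Map4, the MAP best known from non-neuronal cells, stood at 0.07 (SE 0.10), with a row that overlaps Gm42433; Map6, which stabilises microtubules against cold, stood at 0.06 (SE 0.10). Map1s, a small relative of Map1a and Map1b, stood at -0.01 (SE 0.11). Map7, which recruits kinesin-1 and is known from epithelia, was the scarcest, at 5.52 to 7.61 CPM in mutant and 5.75 to 8.91 CPM in wild-type cortex, and its log2 fold change of -0.31 (SE 0.24) was the lowest of the members.

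The doublecortin family varied little. Dcx, the X-linked gene of migrating neurons, gave 1019, 1029.7 and 1038 CPM in Tle4-/- cortex and 1043, 948 and 936 CPM in wild-type cortex. Its within-genotype SD of 0.06 in log2 CPM was the smallest of the tested members, and its log2 fold change was 0.08 (95% interval -0.10 to 0.26). Dcx is on the same chromosome as Xist, which separated the genotypes, and a part of sex in its values was not tested. Dclk1, a kinase with doublecortin domains, gave 886, 831 and 900.4 CPM in mutant and 806, 854 and 771 CPM in wild-type cortex (log2 fold change 0.11, SE 0.08). Dclk2, its close relative, stood at -0.08 (SE 0.10).

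All 4 stathmins had a log2 fold change above 0, with a median of 0.19, and 0 of 4 were called. Stmn4, a stathmin of the nervous system at chr14:66344296-66361680, gave 326, 282 and 294 CPM in Tle4-/- and 274, 235 and 189.5 CPM in wild-type cortex. All mutant values lay above all wild-type ones, and the log2 fold change was 0.37 (SE 0.13, 95% interval 0.07 to 0.67, edgeR unadjusted p = 0.0216, adjusted p = 0.9996). Stmn2, the growth-cone stathmin at chr3:8509360-8561606, gave 1624, 1572 and 1596 CPM in mutant and 1490.4, 1369 and 1215 CPM in wild-type cortex. These groups did not overlap either, and the log2 fold change was 0.23 (SE 0.09, edgeR unadjusted p = 0.0298, adjusted p = 0.9996). In the authors' deposited comparison the unadjusted p was 0.0302 for Stmn4 and 0.115 for Stmn2.

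Stmn1, the stathmin of progenitors and young neurons, gave 1141, 999 and 978 CPM in mutant and 1007, 944 and 867 CPM in wild-type cortex (log2 fold change 0.15, SE 0.10). Stmn3, another neuronal stathmin and the highest by FPKM, gave 521, 489 and 469 CPM in mutant and 495, 463 and 393 CPM in wild-type cortex (log2 fold change 0.13, SE 0.10). Both overlapped between the genotypes, and 17.9% of the 50-base windows of Stmn1 also occur in the pseudogene Gm11223. The third wild-type library was the lowest of the 6 for all 4 stathmins. Without it the log2 fold change of Stmn4 was 0.24 (unadjusted p = 0.0592 in edgeR) and that of Stmn2 was 0.16 (unadjusted p = 0.1003 in edgeR). Without the first wild-type library they were 0.50 and 0.31 (unadjusted p = 0.00296 and 0.00475 in edgeR). Over the fits that left out a mutant library, Stmn4 lay between 0.31 and 0.41, with an unadjusted p of 0.0684 in edgeR without the first. Stmn2 lay between 0.22 and 0.25 over the same fits, and its unadjusted p in edgeR ran from 0.0597 to 0.0726. Summed per kilobase of merged exons, the stathmins reached 1504, 1374 and 1347 CPM per kilobase in mutant and 1342, 1304 and 1112 in wild-type libraries (exact 2-sided permutation p = 0.1, the smallest possible). This sum includes Stmn4 and Stmn2, which had already separated, so it is not separate support. The same exact permutation test gave p = 0.1 for the summed end-binding genes and 0.3 for the doublecortin family. The end-binding sum includes Mapre2, whose CPM separated the genotypes, so it is not separate support either. The summed classical MAPs overlapped between the genotypes.

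Of the end-binding proteins, Mapre2 differed most between the genotypes of all members by unadjusted p, while Mapre1 and Mapre3 had log2 fold changes of -0.02 and 0.01. Mapre2 encodes EB2, a plus-end protein, at chr18:23752333-23893861. It gave 571, 526 and 518 CPM in Tle4-/- cortex and 411, 341 and 447 CPM in wild-type cortex, with no overlap. The means were 538 ± 28.7 CPM in mutant and 399.7 ± 53.9 CPM in wild-type cortex (SD, n = 3 each), a log2 fold change of 0.43 (SE 0.11, 95% interval 0.18 to 0.68). The edgeR unadjusted p was 0.00332, and the adjusted p of 0.702 missed the threshold. In the authors' deposited table Mapre2 had a p of 0.00689 and an adjusted p of 0.851. With each library left out in turn the log2 fold change lay between 0.33 and 0.52, and Mapre2 kept an unadjusted p under 0.05 in edgeR each time.

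Mapre1, which encodes the general plus-end tracker EB1, gave 387, 387 and 368 CPM in mutant and 412, 364 and 382 CPM in wild-type cortex (log2 fold change -0.02, 95% interval -0.21 to 0.17). Mapre3, the EB3 gene of neurons and muscle, gave 100.2, 90.1 and 96.3 CPM in mutant and 103, 97.1 and 85.2 CPM in wild-type cortex (log2 fold change 0.01, SE 0.11). Their mutant and wild-type values were intermixed. The mix of the 3 genes per kilobase of merged exons followed these values. Mapre2 made up 41.6%, 40.6% and 40.4% in mutant and 32.8%, 30.9% and 37.3% in wild-type libraries. The exact 2-sided permutation p was 0.1, the smallest possible, and was not adjusted. Mapre2 had already separated the genotypes in CPM, while Mapre1 and Mapre3 had not. The Mapre2 share rests on the same counts, so it is not separate support. Mapre1 made up 36.9%, 38.9% and 37.5% in mutant and 42.9%, 43.1% and 41.7% in wild-type libraries. On this scale Mapre2 led in all 3 mutant libraries and Mapre1 in all 3 wild-type ones, whereas by deposited FPKM Mapre1 led in both genotypes, at 46.6 ± 1.49 in mutant and 47.6 ± 1.84 in wild-type cortex (SD, n = 3 each).

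**Figure D5:**
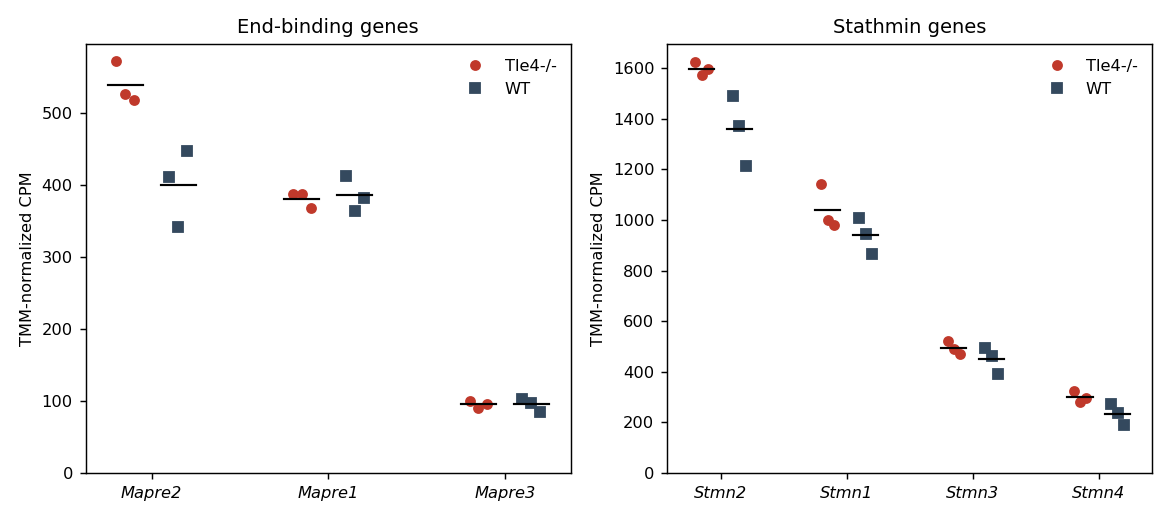
TMM-normalized CPM of the end-binding genes (left) and the stathmins (right) in each library; circles are Tle4-/-, squares wild type (WT), and lines the means. All mutant points of Mapre2, Stmn2 and Stmn4 lie above all wild-type points, and the other 4 genes overlap.

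The TPPP genes were low at birth. Tppp3, which is known from ciliated cells, gave 12.2, 7.43 and 9.54 CPM in Tle4-/- and 5.81, 9.38 and 6.61 CPM in wild-type cortex (log2 fold change 0.42, SE 0.25, edgeR unadjusted p = 0.133). Of the mutant libraries 2 lay above all wild-type ones and the other within their range. The log2 fold change of Tppp3 was 0.22 without the first mutant library, 0.28 without the first wild-type library and 0.65 without the second wild-type library (edgeR unadjusted p = 0.430, 0.329 and 0.0365). Summed markers of ependymal and ciliated cells were 10.4 to 11.99 CPM in mutant and 4.63 to 8.08 CPM in wild-type cortex, with 7 of 8 markers in the table, 3 tested, and Tmem212 at 3 counts or fewer in every library; their part in Tppp3 was not tested. Tppp, the founding member, best known from oligodendrocytes, gave 47.4, 34.2 and 30.1 CPM in mutant and 32.8, 43.4 and 38.6 CPM in wild-type cortex, and the genotypes were intermixed (log2 fold change -0.04, SE 0.18). Summed markers of the oligodendrocyte lineage were 331 to 358 CPM in mutant and 281 to 321 CPM in wild-type cortex.

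The genes that fold, modify, cut and move microtubules also gave 0 calls. Of 138 such genes in 7 lists, 134 were in the table and 133 were tested; 0 were called in either direction, against 0.111% of all genes. An unadjusted p under 0.05 was found for 3 of the 133, against 3.45% of all genes, and 73 lay above 0, against 48.7%, with a median log2 fold change of 0.01. All 17 folding cofactors and chaperonin subunits were tested, 11 above 0, with the smallest p for Arl2 (log2 fold change 0.15, SE 0.17) and Cct4 (0.08, SE 0.10). Of 17 tested tubulin-modifying enzymes 9 lay above 0. Agtpbp1, which trims glutamates from tubulin tails, gave 307, 263 and 276 CPM in mutant and 255, 229 and 239 CPM in wild-type cortex (log2 fold change 0.23, edgeR unadjusted p = 0.0368), and Ttll3, a glycylating ligase, stood at -0.33 (SE 0.23).

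Of 11 severing and minus-end genes 3 lay above 0. Among them the katanin-like Katnal1 stood at 0.41 (edgeR unadjusted p = 0.0239) and the minus-end binder Camsap1 at -0.16 (SE 0.11). The 20 genes of the gamma-tubulin ring and its recruiter augmin were split, with 11 above 0. Haus7, an X-linked augmin subunit, gave 23.8, 24.3 and 17.9 CPM in mutant and 15.3, 13.6 and 16.0 CPM in wild-type cortex, all mutant values higher (log2 fold change 0.55, edgeR unadjusted p = 0.00843, adjusted p = 0.9996), and Haus1 stood at 0.24 (SE 0.21). As for Dcx, the part of sex in Haus7 was not tested.

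Of 21 plus-end genes 9 lay above 0, led by the spectraplakins Macf1 (0.18, SE 0.10) and Dst (0.17, SE 0.11), which link actin to microtubules. Of 20 dynein and lissencephaly genes 15 lay above 0, with the smallest p for the motor subunits Dynll1 (0.17, SE 0.15) and Dync1i2 (0.10, SE 0.10). Of 28 other microtubule-binding or regulating genes 16 lay above 0, with Dclk3, a doublecortin-like kinase, at -0.33 (SE 0.18) and Dpysl2, a tubulin-binding protein of growth cones, at 0.19 (SE 0.11).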

How the data were processed

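Cortex RNA of 3 Tle4-/- and 3 wild-type mice was analysed from 1 table that the authors deposited for the whole series. Per the file headers, the authors deposited whole-number counts, FPKM values, and p-values with their adjusted forms from a comparison of their own. Tools named in the submitters' processing notes are HISAT2 2.0.4, edgeR and StringTie, with GRCm38.p4 and mm10 as builds. The counting program, like the annotation release, read length and strand setting, is not given in the sources used here. Libraries held 18617408 to 21632607 counts, and 25 gene symbols as deposited have the form of dates. The separate origin of the libraries is not stated beyond the word littermate, so p-values measure the spread between these libraries, which may be partly technical.

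Counts were fitted across all genes with edgeR 4.0.16 in R 4.3.3 (filterByExpr, TMM factors, robust quasi-likelihood test, Benjamini-Hochberg adjustment, threshold 0.05). These steps were also run on simulated counts. Means came from the data, and dispersions from the fitted trend over level rather than from each gene. Changes were placed only in genes above a minimum mean count. Of 189 calls in the simulated counts, 14 were false, and 77% of 2-fold changes were recovered. Smaller changes, changes in genes of low count and genes more variable than the trend were not simulated. Levels are TMM-normalized CPM, except values per kilobase, which are scaled to total counts without TMM factors. Each SE divides the absolute log2 fold change by the root of the test's F. Isotype shares from the deposited FPKM values were compared by exact 2-sided permutation with scipy, and adjusted over 9 shares of at least 1%. Exon lengths, shared windows and sequences come from GENCODE M21, which holds 23456 of the 23621 gene IDs on the same chromosome. Windows shared with genes that overlap a member's own locus were left out. The coding ends of the alpha-tubulin genes are not reported here.

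Members and gene lists were chosen with earlier results of these data known. Values per library are given for tubulins at 1% or more of their family, the 8 members with the smallest p, and the most abundant member of each group by FPKM; from each list the 2 genes with the smallest p are named. Map2, Mapt, Dclk1, Map7, Mapre3, Tuba4a, Tuba8, Tuba3b, Tubb1 and Tubb4b-ps1 were given such values after these had been seen. Alternatives were DESeq2 1.42.0 size factors and its Wald test, limma-voom (limma 3.58.1), 2 other filters, leaving out each library, a replicate block, removal of X, Y and mitochondrial genes, and 2 other length scales, summed copies or no pseudogenes for the shares.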

Additional observations from a re-analysis of the deposited data

How the results depend on the processing

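No member and no gene of the 7 lists was called in any of the 13 alternatives, and the smallest adjusted p of a member was 0.228, for Mapre2 in the DESeq2 Wald test. Calls over all genes were 18, against 58 with that test, 10 without X, Y and mitochondrial genes and 9 with the replicate block. Whether libraries with the same replicate number share a litter or batch is not stated. Correlations of deviations from the genotype means were -0.06, 0.10 and -0.02 for the same numbers. Those for different numbers ran from -0.09 to 0.10, so these values cannot decide it. The block changed no member's call. With each library left out, calls ranged from 8 to 19, members above 0 from 23 to 31, their median from 0.05 to 0.13, and members at an unadjusted p under 0.05 from 1 to 7: 1 without the first mutant or the third wild-type library (Mapre2 both times), 7 without the first and 6 without the second wild-type library. The sign of 22 members held in every alternative. Near-zero values turned for Tuba1a (-0.000195 with DESeq2 size factors or test) and Tubb2a (0.00244 without a filter, 0.000513 at 1 CPM, 0.000786 without X, Y and mitochondrial genes). Ranges over left-out libraries that cross 0 were -0.46 to 0.16 (Tuba4a), -0.10 to 0.11 (Tubb2a), -0.0071 to 0.16 (Map1a), -0.012 to 0.14 (Map6), -0.086 to 0.043 (Map1s), -0.068 to 0.068 (Mapre3), -0.25 to 0.091 (Tppp), -0.020 to 0.11 (Tubb5), -0.082 to 0.13 (Tubg2), -0.10 to 0.13 (Tuba1a), -0.056 to 0.030 (Mapre1), -0.085 to 0.049 (Tubb4a) and -0.15 to 0.011 (Dclk2). The mutant shares on counts, then per kilobase of merged exons, were 76.6% and 80.0% for Tuba1a, 19.2% and 15.9% for Tuba1c, 4.02% and 4.04% for Tuba1b, 28.3% and 27.8% for Tubb2b, 29.8% and 20.1% for Tubb5, and 1.54% and 1.67% for Tubb4b; on counts alone Tubb2a moved to 12.1% and Tubb3 to 23.9%. Here the gene length itself moves the share. With the 3 near-identical alpha genes summed, the mutant minus wild-type share was 0.0113 points; their sum is nearly all of alpha-tubulin in every library (99.90% to 99.96%), so this value is near 0 by construction and does not bear on the difference of -2.60 points for Tuba1a. Depth limits Tuba8, Tuba3b, Tubb1 and Tubb4b-ps2, which had at most 7 counts per library.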
